A study of Homo sapiens with 5 samples.

Results

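The genes described here are interferon-stimulated genes and RNA sensors, read on arrays of human HepG2 cells depleted of the histone demethylase LSD2. They were taken from a list of 58 symbols, which stand for 57 genes because DDX58 is the older name of RIGI. A gene counted as measured where at least 1 probe set carried its symbol and no other. This left 47 of the 57, out of 12893 genes on the arrays, read by 78 probe sets. DHX58, IFI16, OASL, IFIT2, RSAD2, HERC5, IRF7, STAT2, IFI44 and IFI44L had no such probe set in the table used here and were not analysed here.

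HepG2 is an established line of human hepatic tumour cells. LSD2, encoded by KDM1B, was depleted with 3 small interfering RNAs (siRNAs), numbered 1 to 3 and each read on 1 array. The controls received siRNA directed at GL3, a luciferase of fireflies, and were read on 2 arrays, the second of which is labelled a technical replicate of the first, so that their mean counted as 1 sample. Cells of each group were kept in high-glucose medium (25 mM, with 10% serum), were transfected with lipid carrying the siRNA at about 50% confluence and were harvested after 3 to 4 days. All 5 arrays thus came from cells that carried some siRNA. The labels do not state whether separate cultures were used for each siRNA, so the p-values measure the spread between these siRNAs, which may be partly technical.

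Cells recognise double-stranded RNA with the helicases RIG-I (RIGI) and MDA5 (IFIH1) in the cytosol and with TLR3 in endosomes. These sensors switch on type I and type III interferons through IRF3 and related factors. Secreted interferon then acts through JAK kinases on a complex of STAT proteins and IRF9, which binds interferon-stimulated response elements and induces a large set of genes that hinder viral replication. Small interfering RNAs are themselves double-stranded, and some sequences and designs are known to set off this response in cultured cells.

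The deposited values are on a log scale, read here as log2, with every probe set centred on its median over the 5 arrays. A value of 1 thus means a doubling relative to that median, and the level of a gene, or whether it was expressed at all, is not in the data. For the same reason the markers of hepatocytes, of which 9 of 10 were measured, could not show by their level what the cells were. The targeted gene KDM1B, the mean of 2 probe sets, read 1.56 and 0.78 on control arrays 1 and 2, against -1.43, -0.56 and -0.22 under siRNAs 1, 2 and 3. Its probe sets differed, and the weaker one read 0.95 and 0.08 on the control arrays, against -0.73, 0.00 and -0.43, so that under siRNA 2 it stood near control array 2. With 1 probe set per gene in place of the mean, chosen by the suffix of its ID, the mean difference of KDM1B was -0.90 against -1.90. Bacterial RNAs spiked into the samples (24 poly-A control probe sets) read lower on control array 2 and under siRNA 3, with medians of -1.45 and -1.39 against control array 1, than under siRNAs 1 and 2, at 0.04 and 0.07. Control array 1 with siRNAs 1 and 2 is called spike-in set 1 below, and control array 2 with siRNA 3 spike-in set 2. The hepatocyte markers had medians of -0.41, 0.60 and 0.61 against the control mean under siRNAs 1, 2 and 3, siRNA 1 was the lowest siRNA in 9 of the 9, and none stood outside both control arrays. Albumin (ALB) stood at -2.02, 3.03 and 2.69. Of 4 leukocyte markers measured CD14 stood above and CD3E below both control arrays under all 3 siRNAs. Of 4 fibroblast and stellate cell markers 2 stood above, ACTA2 and DCN. The others changed direction between siRNAs 1, 2 and 3, COL1A1 at 3.32, 1.27 and -0.84 and PDGFRB at 1.30, -2.54 and -2.27 against the control mean. Over all genes 8.63% stood above and 10.1% below. The part of the markers in the results was not tested.

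Interferon-stimulated genes stood higher under LSD2 siRNA than under control siRNA in most members, by modest amounts, and no single member passed the test. The median of the 47 mean differences from the control was 0.33, against -0.02 over all 12893 genes. It was 0.16 under siRNA 1, 0.58 under siRNA 2 and 0.34 under siRNA 3, where all genes had medians of -0.04, 0.03 and 0.01. The mean difference was above 0 in 37 members and below 0 in 10. In RNA of a whole culture, a change in the number of responding cells and a change in RNA per cell cannot be told apart. Under siRNA 1, 28 of the 47 stood above the control mean, under siRNA 2 40 and under siRNA 3 34, where 46.6%, 51.7% and 51.3% of all genes did so.

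Members that kept one direction under all 3 siRNAs were mostly higher. Above the control mean in each siRNA were 22 of the 47 members (46.8%), against 17.9% of all genes, and below it were 2 (4.26%), against 18.2%. By the stricter count, in which the 3 siRNA arrays lie outside both control arrays, 12 members (25.5%) stood above, against 8.63% of all genes. The same count put 2 members (4.26%) below, IFITM1 and EPSTI1, against 10.1% of all genes. With 1 siRNA left out fewer arrays had to clear the controls, and the shares of all genes rose as well. Without siRNA 1 the count above both control arrays was 20, against 18.4% of all genes, without siRNA 2 it was 14, against 13.7%, and without siRNA 3 it was 18, against 16.6%. No member passed in limma, where 0 of the 12893 genes (0%) fell under the threshold of 0.05 on the adjusted p and no gene had an adjusted p below 0.9999. At an unadjusted p under 0.05 limma had 3 members higher, OAS1, ISG20 and PARP14, against 1.33% of all genes, and 1 lower, IFITM1, against 0.357%.

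**Figure D1:**
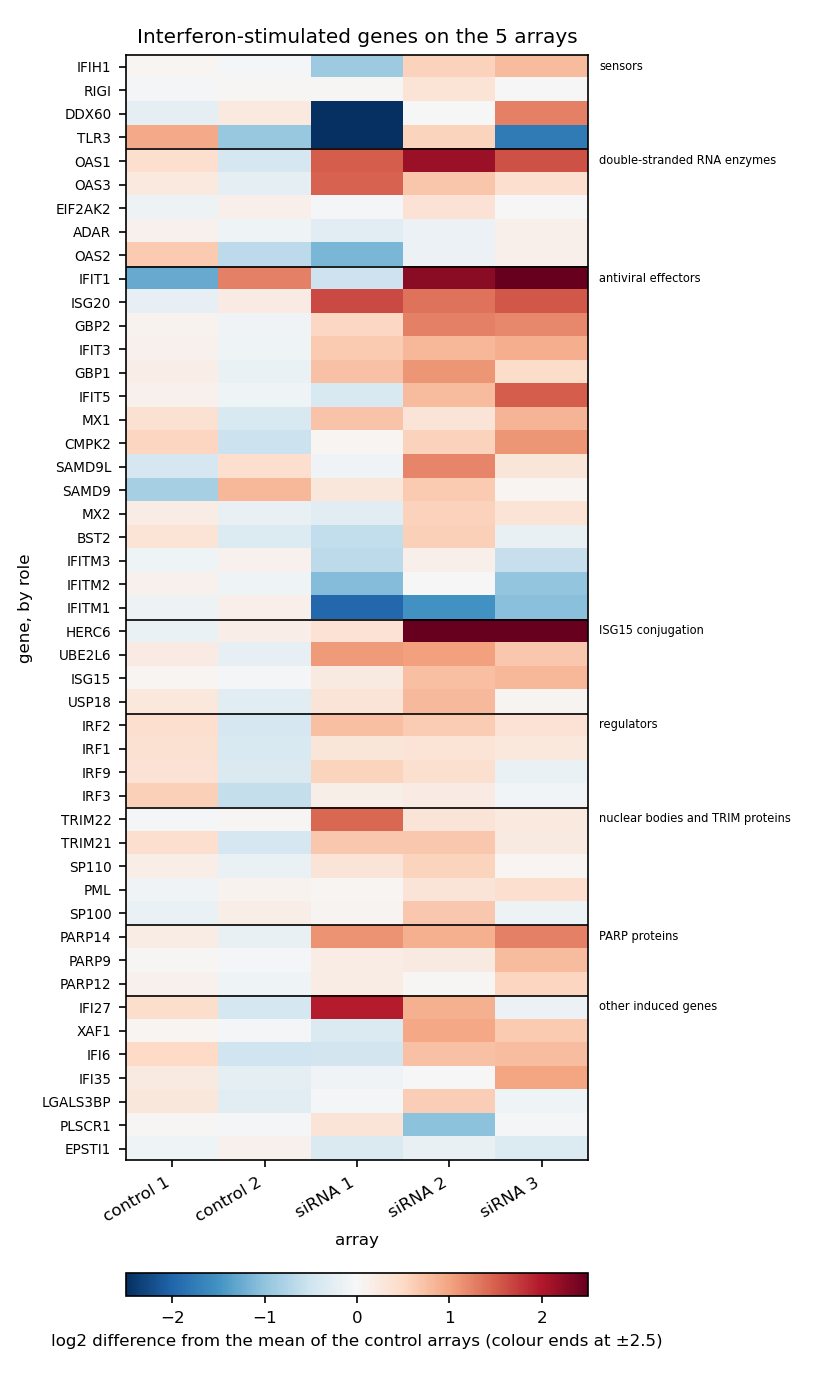
Log2 difference of each of the 47 members (rows, ordered by role and then by mean difference) from the mean of the control arrays, on the 5 arrays (columns), with red for higher and blue for lower and colours ending at 2.5 on either side. OAS1, ISG20 and PARP14 are red in each siRNA column and IFITM1 is blue in each, while DDX60 and TLR3 are deep blue under siRNA 1.

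The control arrays were not equal over these genes. Control array 2 read below control array 1 in 33 of the 47 members (70.2%), against 55.5% of all genes, and the median difference of array 2 from array 1 was -0.22, against -0.06 over all genes. It was the lowest of the 5 arrays in 23 members (48.9%), against 19.8% of all genes, and control array 1 was the lowest in 10 (21.3%), against 12.8%. Without control array 2 the median over the members was 0.15, without control array 1 it was 0.47, and without siRNA 2 it was 0.20. With each siRNA set against the control of its own spike-in set, the median was 0.14 under siRNA 1, 0.38 under siRNA 2 and 0.63 under siRNA 3. With the spike-in set as a block in limma it was 0.34, and again 0 members passed. By the control of their own set, 20 members (42.6%) were higher in each siRNA, against 15.4% of all genes, and 4 (8.51%) were lower, against 18.4%.

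**Figure D2:**
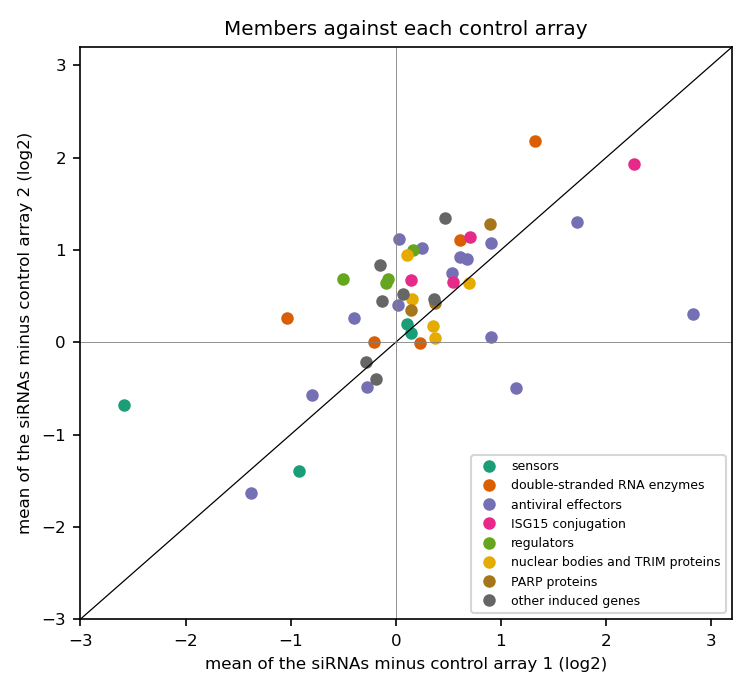
Mean of the 3 siRNAs minus control array 1 (horizontal axis, log2) and minus control array 2 (vertical axis, log2) for the 47 members, 1 point a gene, coloured by role, with the line of equal values. Most points lie above the line, the 4 regulators among them, and OAS1 and HERC6 lie high on both axes.

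OAS1, ISG20 and ISG15 were among the 12 members above both control arrays, and IFITM1 stood below both. The start-site windows of these 4 genes are shown as examples. Each runs from 250 bases before to 50 bases after the start in RefSeq (GRCh38.p14), on the plus strand, 5′ to 3′, with interferon response elements in capitals. The positions are chr12:112906712-112907011 for OAS1, chr15:88638766-88639065 for ISG20, chr1:1013247-1013546 for ISG15 and chr11:313790-314089 for IFITM1.
OAS1: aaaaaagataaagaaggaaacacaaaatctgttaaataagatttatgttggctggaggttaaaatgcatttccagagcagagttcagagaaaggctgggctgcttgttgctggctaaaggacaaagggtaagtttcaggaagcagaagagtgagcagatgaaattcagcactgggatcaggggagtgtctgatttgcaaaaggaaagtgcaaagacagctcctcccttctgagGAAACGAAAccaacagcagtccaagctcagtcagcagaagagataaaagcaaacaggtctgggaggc
ISG20: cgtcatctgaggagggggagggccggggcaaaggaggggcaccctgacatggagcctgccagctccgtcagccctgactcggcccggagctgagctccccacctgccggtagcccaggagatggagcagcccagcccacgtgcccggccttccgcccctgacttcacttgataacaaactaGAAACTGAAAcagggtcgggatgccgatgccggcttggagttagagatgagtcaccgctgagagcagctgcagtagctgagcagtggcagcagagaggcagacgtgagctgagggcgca
ISG15: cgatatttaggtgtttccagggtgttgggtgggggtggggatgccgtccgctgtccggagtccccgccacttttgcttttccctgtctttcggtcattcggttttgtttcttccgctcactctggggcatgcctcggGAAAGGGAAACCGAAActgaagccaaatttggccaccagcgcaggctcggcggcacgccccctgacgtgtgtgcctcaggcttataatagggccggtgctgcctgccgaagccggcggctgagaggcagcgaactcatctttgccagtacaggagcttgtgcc
IFITM1: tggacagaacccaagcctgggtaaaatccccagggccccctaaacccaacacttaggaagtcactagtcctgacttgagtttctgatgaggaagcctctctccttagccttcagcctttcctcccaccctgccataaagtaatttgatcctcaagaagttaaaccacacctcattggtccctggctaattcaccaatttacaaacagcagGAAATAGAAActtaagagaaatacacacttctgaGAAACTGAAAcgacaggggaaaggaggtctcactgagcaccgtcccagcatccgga
The element was searched on both strands as GAAANNGAAA or, with 1 base between the repeats, GAAANGAAA, and matches of the first form can overlap, as in the ISG15 window. OAS1 carried 1 match of the shorter form, which began 17 bases before the start, ISG20 1 match of the longer form at 69 bases, and ISG15 a pair at 113 and 107 bases. IFITM1 carried a pair as well, which began 40 and 6 bases before the start. An element was thus present in each of these 4 example windows, though not in those of every member above both control arrays.

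Over the whole list the interferon response elements were common. The RefSeq table held windows for 44 of the 57 genes, and 36 of the 44 (81.8%) had an element of either form in at least 1 window, against 6.4% of all 35116 windows. Among measured members it was present in 8 of the 10 with a window that stood above both control arrays, in both that stood below, and in 21 of the other 26. With only 2 members below, these counts cannot show whether its presence differs by direction, and this was not tested. HERC6 and UBE2L6, which stood above both control arrays, had no match in their windows. The element of the interferon-gamma pathway was searched as TTCNNNGAA, a pattern that reads the same on both strands. It was in 14 of the 44 genes (31.8%), against 7.66% of all windows. Among measured members with a window it was in 2 of the 10 above both control arrays, OAS1 and PARP14. It was also in both that stood below, IFITM1 and EPSTI1, and in 10 of the other 26. Whether its presence differs by direction was not tested.

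Among the 4 sensors measured no member kept one direction against the control mean under the 3 siRNAs. Over all genes 17.9% were higher and 18.2% lower under all 3, so that with 4 genes this count does not set the sensors apart. RIGI, the helicase that recognises RNA ends with a triphosphate, read -0.08 and -0.03 on control arrays 1 and 2, against -0.04, 0.29 and -0.06 under siRNAs 1, 2 and 3, the mean of 3 probe sets. In this mean all 5 arrays lay close together, and the difference was 0.12 ± 0.20 (SD, n = 3 siRNAs). The probe sets disagreed in sign, with mean differences of 0.49, 0.30 and -0.42, and 1 probe set per gene gave 0.30. IFIH1, which encodes MDA5, the sensor of long double-stranded RNA, read -0.12 and -0.22 on the control arrays, against -1.08, 0.41 and 0.62 under the siRNAs. It was low under siRNA 1 and above both control arrays under siRNAs 2 and 3, with a mean difference of 0.15 ± 0.93 (SD, n = 3 siRNAs). Its 3 probe sets did not agree, with mean differences of -0.96, 0.40 and 1.02. The probe set at -0.96 held a value of -3.70 under siRNA 1, and 1 probe set per gene gave 0.40.

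DDX60, a helicase-like protein linked to RIG-I signalling, read -0.22 and 0.26 on the control arrays, against -4.70, 0.00 and 1.27 under siRNAs 1, 2 and 3. The single very low value under siRNA 1 set its mean difference of -1.16 ± 3.14 (SD, n = 3 siRNAs), and without that array the mean was 0.62. TLR3, the endosomal receptor, was read by 1 probe set at 1.91 and 0.00 on the control arrays, against -2.72, 1.50 and -0.81 under the siRNAs. Its control arrays differed by -1.91 and the groups overlapped, with a mean difference of -1.63 ± 2.12 (SD, n = 3 siRNAs), or -2.58 against control array 1 alone and -0.68 against control array 2 alone. Against the control of its own spike-in set TLR3 was lower under each siRNA, by -4.63, -0.40 and -0.81 under siRNAs 1, 2 and 3. The median over the 4 sensors was -2.29 under siRNA 1, 0.45 under siRNA 2 and 0.39 under siRNA 3. With 4 genes, the siRNA 1 median is the midpoint of TLR3, at -3.68, and IFIH1, at -0.91, and the IFIH1 value rests on its 1 low probe set.

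Of the enzymes that are activated by or act on double-stranded RNA, OAS1 and OAS3 stood above both control arrays and the other 3 did not. Over all genes 8.63% stood above both. OAS1, an oligoadenylate synthetase whose product activates RNase L, read -1.09 and -1.94 on control arrays 1 and 2, against 0.00, 0.64 and 0.07 under siRNAs 1, 2 and 3. The siRNA arrays lay above both control arrays by more than they differed among themselves, and its 2 probe sets gave mean differences of 1.69 and 1.81. The mean was 1.75 ± 0.35 (SD, n = 3 siRNAs), or 337% of the control, with a limma standard error of 0.45 and an adjusted p of 0.9999. Against control array 1 alone it was 1.33 and against control array 2 alone 2.18. OAS3, the largest enzyme of the family, read -0.18 and -0.67 on the control arrays, against 1.04, 0.27 and 0.00 under the siRNAs. It was highest under siRNA 1, with a mean difference of 0.86 ± 0.54 (SD, n = 3 siRNAs), or 0.56 without that siRNA.

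OAS2, the third synthetase, had overlapping groups. It read 0.74 and -0.56 on the control arrays, against -1.05, -0.06 and 0.21 under the siRNAs, and its mean of -0.39 turned to 0.26 without control array 1. EIF2AK2, the kinase PKR that halts translation on binding double-stranded RNA, and ADAR, which edits adenosines in such RNA, stood near the control. Their mean differences were 0.11 ± 0.22 and -0.10 ± 0.20 (SD, n = 3 siRNAs), each smaller than its spread, and each changed sign with an array left out.

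All 4 measured genes listed here under ISG15 conjugation stood above the control mean under all 3 siRNAs, against 17.9% of all genes. Above both control arrays were 3 of them, against 8.63% of all genes. The ligase HERC5, listed there too, was not measured. Whether HERC6 acts on ISG15 in these cells is not in the data, so its place under this role rests on the list alone. ISG15, the ubiquitin-like protein itself, read -0.18 and -0.29 on the control arrays, against 0.00, 0.51 and 0.59 under siRNAs 1, 2 and 3. It lay above both control arrays in each siRNA, least under siRNA 1, with a mean difference of 0.60 ± 0.32 (SD, n = 3 siRNAs). UBE2L6, the enzyme that carries ISG15 to its targets, read -0.46 and -0.89 on the control arrays, against 0.38, 0.36 and 0.00 under the siRNAs. Its siRNA values lay close together and its mean difference was 0.92 ± 0.21 (SD, n = 3 siRNAs). HERC6, a HECT-type ligase, read -0.53 and -0.20 on the control arrays, against 0.00, 2.60 and 2.60 under siRNAs 1, 2 and 3. It had the highest mean difference of the 47 members, 2.10 ± 1.50 (SD, n = 3 siRNAs), but siRNA 1 stood at 0.37 while siRNAs 2 and 3 each stood at 2.97. USP18, the protease that removes ISG15 and restrains interferon receptor signalling, stood at 0.41 ± 0.38, and its siRNA 3 array read below control array 1. For UBE2L6, ISG15 and HERC6 limma gave an adjusted p of 0.9999 each.

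Antiviral effectors ranged from ISG20 and IFIT1 at the top to IFITM1 at the bottom. Of 15 measured, 4 stood above both control arrays (ISG20, IFIT3, GBP1 and GBP2), against 8.63% of all genes. Below both stood 1 (IFITM1), against 10.1% of all genes. The median over the 15 was -0.08, 0.65 and 0.45 under siRNAs 1, 2 and 3. ISG20, an exonuclease that degrades single-stranded RNA, read -1.57 and -1.15 on the control arrays, against 0.28, 0.00 and 0.20 under the siRNAs. Its siRNA arrays lay close together, at 1.52 ± 0.15 (SD, n = 3 siRNAs), or 286% of the control, with a limma standard error of 0.39 and an adjusted p of 0.9999. Both of its probe sets stood high, at 1.38 and 1.66.

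IFIT3, one of the proteins with tetratricopeptide repeats that bind foreign RNA, read -0.49 and -0.72 on the control arrays, against 0.04, 0.21 and 0.30 under siRNAs 1, 2 and 3. It stood at 0.79 ± 0.13 (SD, n = 3 siRNAs), with the siRNA arrays close together. Its probe sets gave 0.43 and 1.16, and 1 probe set per gene gave 0.43. Its neighbour IFIT1, which binds RNA lacking 2′-O-methylation at the cap, showed a quite different spread. It read -2.53 and 0.00 on the control arrays, against -1.77, 0.99 and 1.69 under the siRNAs, so that its mean of 1.57 rested on a control that differed by 2.53 between its own arrays. IFIT5 stood at -0.37, 0.79 and 1.51 against the control mean under siRNAs 1, 2 and 3. In IFIT1 and IFIT5 siRNA 1 stood below the control mean while siRNAs 2 and 3 stood above it. Against the control of its own spike-in set IFIT1 was higher under each siRNA, at 0.75, 3.51 and 1.69. IFIT5 kept its pattern there, at -0.48, 0.69 and 1.61.

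The guanylate-binding proteins, large GTPases that attack intracellular pathogens, stood above the control under each siRNA in the mean of their probe sets. GBP2 read -0.45 and -0.62 on the control arrays, against -0.01, 0.72 and 0.66 under the siRNAs, a mean difference of 0.99 ± 0.41 (SD, n = 3 siRNAs). Of its 2 probe sets 1 stood at -0.13 under siRNA 1, and with 1 probe set per gene GBP2 no longer lay above both control arrays. GBP1 stood at 0.74, 1.11 and 0.45 against the control mean, or 0.77 ± 0.33, and its 3 probe sets gave means between 0.67 and 0.87. MX1, a dynamin-like GTPase that traps viral nucleocapsids, stood at 0.63 ± 0.27, but its siRNA 2 array lay between its control arrays, which differed by -0.77. MX2 stood at 0.21 ± 0.44 and BST2, also called tetherin, which holds budding virions at the cell surface, at -0.07 ± 0.62, each with a mean smaller than its spread. CMPK2, SAMD9 and SAMD9L stood at 0.58, 0.32 and 0.48, with control arrays that differed by -1.09, 1.65 and 0.86.

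**Figure D3:**
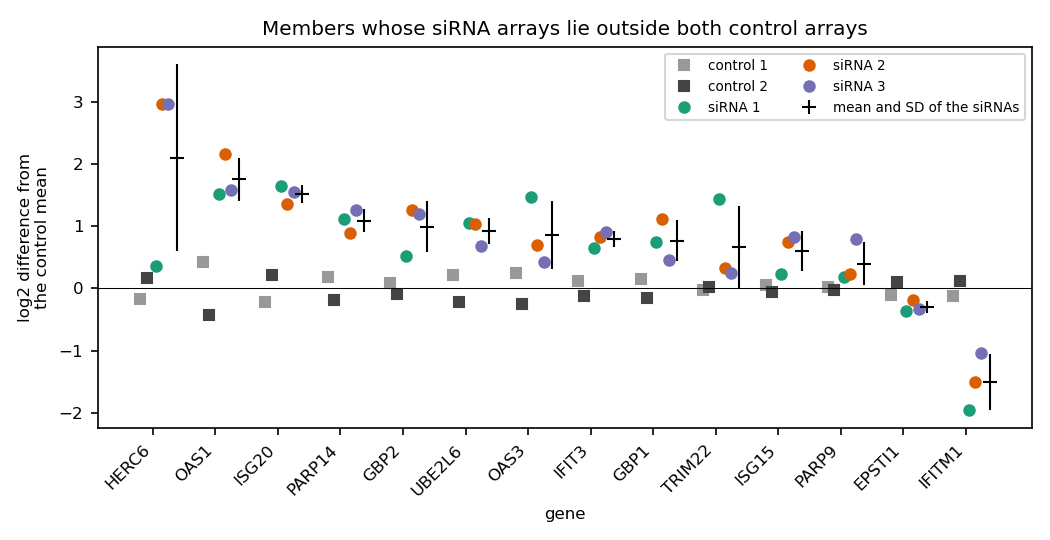
Log2 difference from the control mean (vertical axis) of the 14 members whose 3 siRNA arrays lie outside both control arrays (horizontal axis), with squares for the control arrays, circles for the siRNAs and a cross for the mean and SD of the 3 siRNAs. HERC6 has the widest spread, ISG20 a narrow one at 1.52, and EPSTI1 and IFITM1 stand below 0.

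By mean difference IFITM1 stood opposite to most effectors. Above the control mean stood 7 of the 15 effectors under siRNA 1, 14 under siRNA 2 and 11 under siRNA 3. Over all genes 46.6%, 51.7% and 51.3% did so. Under siRNA 1 IFITM1 was thus not opposite to most effectors. The close relatives of IFITM1 followed it under siRNAs 1 and 3 but not under siRNA 2. The IFITM proteins sit in membranes and block the fusion of enveloped viruses with the cell. IFITM1 read 0.92 and 1.17 on control arrays 1 and 2, against -0.91, -0.47 and 0.00 under siRNAs 1, 2 and 3. The siRNA arrays lay below both control arrays, with a mean difference of -1.50 ± 0.46 (SD, n = 3 siRNAs), or 35.3% of the control, a limma standard error of 0.50 and an adjusted p of 0.9999. Against the control mean IFITM1 stood at -1.96, -1.51 and -1.04 under siRNAs 1, 2 and 3. The mean of the KDM1B probe sets had the same order, at -2.60, -1.73 and -1.38, but each is a single array. The weaker KDM1B probe set did not have this order, and read -0.73, 0.00 and -0.43. A link between IFITM1 and KDM1B was not tested. Against control array 1 alone IFITM1 stood at -1.38 and against control array 2 alone at -1.63.

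A further probe set, which carries the symbols of both IFITM2 and IFITM1 and so was left out of the gene values, read in the same direction. It read 0.87 and 0.99 on the control arrays, against -0.62, -0.18 and 0.00 under the siRNAs, a mean difference of -1.20. IFITM2 read 0.22 and 0.00 on the control arrays, against -0.97, 0.13 and -0.88 under siRNAs 1, 2 and 3. IFITM3 read 0.00 and 0.21 on the control arrays, against -0.55, 0.22 and -0.48 under the siRNAs. Both thus lay below the control arrays under siRNAs 1 and 3 and at control values under siRNA 2, with mean differences of -0.68 ± 0.61 and -0.38 ± 0.43 (SD, n = 3 siRNAs). The probe sets of IFITM1, IFITM2 and IFITM3 and the further probe set all have IDs of kinds that mark probes shared with similar transcripts. The signal of a family member can thus reach another's probe set, and how far it did so was not tested.

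**Figure D4:**
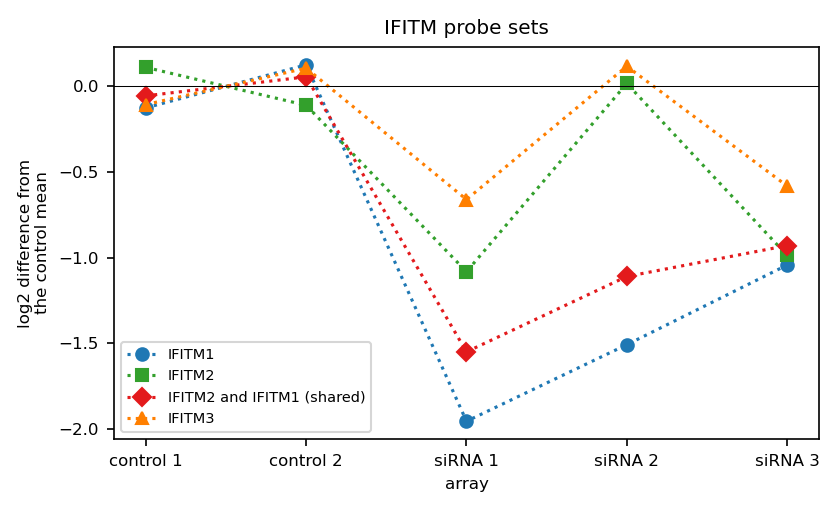
Log2 difference from the control mean (vertical axis) of the 4 probe sets of the IFITM family on the 5 arrays (horizontal axis), with dotted lines joining the values of 1 probe set. The IFITM1 and the shared probe set lie below the controls under each siRNA, while IFITM2 and IFITM3 return to control values under siRNA 2.

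The transcriptional regulators stood, by their median, above control array 2 and slightly below control array 1. IRF1, the factor induced by interferon-gamma, read 0.08 and -0.68 on control arrays 1 and 2, against 0.00, 0.04 and -0.04 under siRNAs 1, 2 and 3. The siRNA arrays lay close to control array 1, so that the mean difference of 0.30 ± 0.04 (SD, n = 3 siRNAs) was -0.08 against that array and 0.68 against control array 2. IRF2, a repressor of many IRF1 targets, read 0.00 and -0.83 on the control arrays, against 0.33, 0.22 and -0.06 under the siRNAs, a mean difference of 0.58 ± 0.20 (SD, n = 3 siRNAs) that was 0.16 against control array 1 alone. IRF3, which acts directly downstream of the RNA sensors, read 0.44 and -0.75 on the control arrays, against 0.00, 0.05 and -0.23 under the siRNAs, between the control arrays in each case. IRF9, the DNA-binding partner of the STAT proteins, read 0.00 and -0.74 on the control arrays, against 0.20, 0.04 and -0.53 under the siRNAs. In each of the 4 regulators control array 2 was the lowest of the 5 arrays, and their median was 0.29 against the control mean, -0.09 against control array 1 and 0.69 against control array 2. With control array 2 left out IRF1, IRF3 and IRF9 had means of -0.08, -0.50 and -0.10. Under spike-in set 2, siRNA 3 against control array 2 gave a regulator median of 0.58, and in spike-in set 1 the medians were 0.06 and 0.00 under siRNAs 1 and 2.

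Members of nuclear bodies, TRIM proteins and PARP proteins stood mostly above the control by small amounts. Above the control mean under all 3 siRNAs were 4 of 5 and 3 of 3, against 17.9% of all genes. TRIM22, a ligase that restricts several viruses, read -0.27 and -0.22 on the control arrays, against 1.19, 0.08 and 0.00 under siRNAs 1, 2 and 3. It lay above both control arrays in each siRNA, but siRNA 1 carried most of its mean of 0.67 ± 0.66 (SD, n = 3 siRNAs), and without that siRNA the mean was 0.29. PML, the scaffold of nuclear bodies, stood at 0.26 and its partners SP100 and SP110 at 0.21 and 0.31, while TRIM21, a cytosolic antibody receptor, stood at 0.53, and each of these 4 overlapped its control arrays. The 4 probe sets of PML ranged from -0.43 to 1.23 and the 6 of SP100 from -0.24 to 0.80.

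PARP14, a mono-ADP-ribosyltransferase, read -0.31 and -0.69 on the control arrays, against 0.62, 0.39 and 0.76 under siRNAs 1, 2 and 3. It stood at 1.09 ± 0.19 (SD, n = 3 siRNAs), or 213% of the control, with both probe sets higher, at 0.88 and 1.30, and a limma adjusted p of 0.9999. PARP9, whose gene shares a chromosomal neighbourhood and an interferon response with PARP14, stood at 0.40 ± 0.34, but its probe sets gave -0.09 and 0.90, the lower of which is its value with 1 probe set per gene. PARP12, which lies on membranes of the Golgi and stress granules, stood at 0.25 ± 0.26.

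Of the 7 remaining induced genes measured 0 stood above both control arrays, against 8.63% of all genes. Below both stood 1, EPSTI1, against 10.1%. With 7 genes both counts are near these shares. EPSTI1 read 0.08 and 0.29 on the control arrays, against -0.18, 0.00 and -0.15 under siRNAs 1, 2 and 3, below both control arrays but by little, at -0.29 ± 0.09 (SD, n = 3 siRNAs), or -0.19 against control array 1 alone. IFI27, a mitochondrial protein gene much used as a marker of the interferon response, was spread widely. It stood at 1.97, 0.89 and -0.14 against the control mean under siRNAs 1, 2 and 3. Against the control of its own spike-in set it was higher under each siRNA, at 1.525, 0.451 and 0.300. IFI6 stood at -0.46, 0.73 and 0.76 and XAF1, a partner of the apoptosis inhibitor XIAP, at -0.36, 0.97 and 0.65. Both were below the control mean under siRNA 1 and above it under siRNAs 2 and 3. IFI35, LGALS3BP and PLSCR1 had means of 0.29, 0.16 and -0.25, each smaller than its spread.

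**Figure D5:**
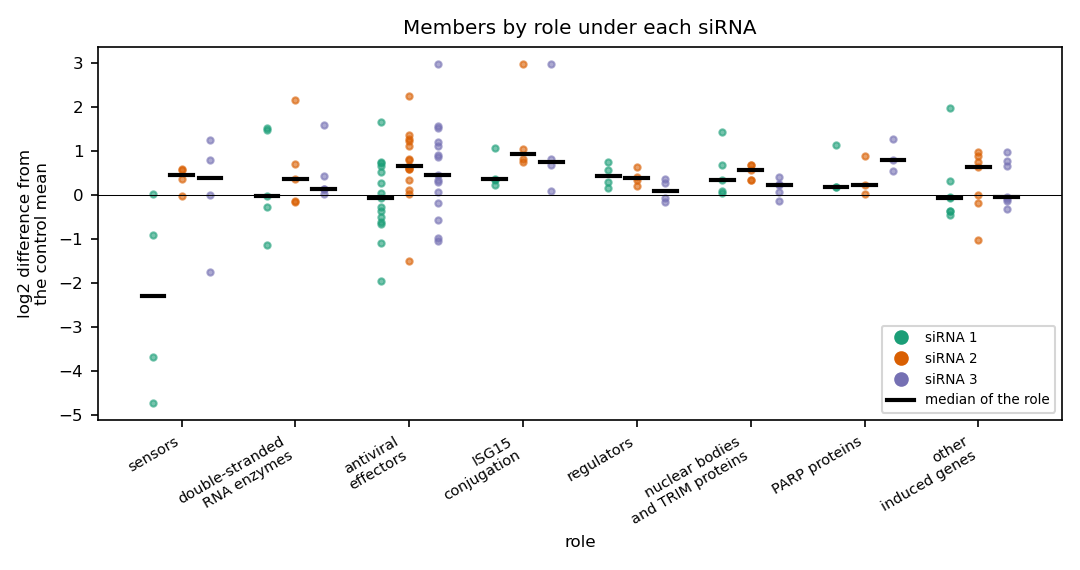
Log2 difference from the control mean (vertical axis) of each member under siRNAs 1, 2 and 3 (colours), grouped by role (horizontal axis), with a black bar for the median of the role. The genes listed under ISG15 conjugation lie above 0 under each siRNA. The sensors have a median of -2.29 under siRNA 1, and the effectors have medians of -0.08, 0.65 and 0.45.

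The 3 siRNAs did not give the same size of difference over the members. Among the 3 siRNAs, siRNA 1 gave the lowest value in 26 of the 47 members, where it did so in 37.1% of all genes, and the highest in 8, against 29.8%. The highest value came from siRNA 2 in 22 members, against 35% of all genes, and from siRNA 3 in 17, against 35.2%. Among the hepatocyte markers siRNA 1 was also the lowest, in 9 of 9, and their part in the pattern of the members was not tested. More than 1 above the control mean were 7 members under siRNA 1, 8 under siRNA 2 and 9 under siRNA 3, where 6.31%, 8.21% and 5.94% of all genes stood that far above. More than 1 below were 5, 2 and 2, where 6.18%, 7.44% and 5.57% of all genes stood that far below. Each siRNA had 1 array, so these differences between siRNAs have no replicate check.

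Other genes of the pathway stood above both control arrays as often as below both. Of 75 genes on 6 lists 45 were measured, of which 0 passed in limma. Above both control arrays stood 4 and below both 4, against 8.63% and 10.1% of all genes. The mean difference was above 0 in 27 of the 45 and below 0 in 18, with a median of 0.07, against -0.02 over all genes. The interferon genes themselves were barely represented, with 3 of 21 measured. IFNL2, a type III interferon, read -0.07 and -0.05 on the control arrays, against 0.48, 0.47 and 0.00 under siRNAs 1, 2 and 3, above both control arrays. Its mean was 0.38 ± 0.27 (SD, n = 3 siRNAs). IFNA5 had a larger mean difference, 1.68, but read 0.30 and -3.58 on the control arrays. Against control array 1 alone it stood at -0.26. IFNA16 stood at -2.30, 1.59 and 0.44 against the control mean under siRNAs 1, 2 and 3.

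Receptors and their kinases stood slightly lower, with a median of -0.24 over 8 measured genes. JAK1, the kinase bound to the interferon receptors, read 0.30 and 0.03 on the control arrays, against -0.61, -0.38 and -0.31 under the siRNAs, or -0.60 ± 0.16 (SD, n = 3 siRNAs) over 4 probe sets. With 1 probe set per gene JAK1 stood at 0.043, on the other side of the control. The receptor subunit gene IFNAR2 stood at -0.29 ± 0.04, or -0.14 against control array 1 alone. In the mean of their probe sets both lay below their control arrays in each siRNA, as 10.1% of all genes did, and neither passed in limma.

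Among 13 measured adaptors and kinases of the sensors, CGAS had the widest difference and was lower. CGAS, the cytosolic DNA sensor that makes cyclic GMP-AMP, read 2.26 and 1.34 on control arrays 1 and 2, against 0.00, -1.47 and -0.42 under siRNAs 1, 2 and 3, the mean of 2 probe sets. The siRNA arrays lay below both control arrays, by -2.43 ± 0.76 (SD, n = 3 siRNAs) on average, with a limma adjusted p of 0.9999. TBK1, the kinase that phosphorylates IRF3, stood at 0.44 ± 0.17, or 0.19 against control array 2 alone. Of 7 feedback regulators 1 stood above both control arrays, against 8.63% of all genes. It was SOCS1, an inhibitor of JAK kinases that interferon induces, at 0.73 ± 0.33, or 0.42 against control array 1 alone. The 4 measured cytokine genes (CXCL9, CCL5, CXCL8 and IL6) had no member outside both control arrays.

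The machinery of RNA interference, parts of which siRNAs engage, stood close to the control. The median over 10 measured genes was -0.03. Above both control arrays stood 1 gene and below both 1, near the shares of all genes, 8.63% and 10.1%. These were AGO3, an Argonaute protein gene, at 0.35 ± 0.19 (SD, n = 3 siRNAs), or 0.60 with 1 probe set per gene, and XPO5, the exportin of microRNA precursors, at -0.26 ± 0.11, or -0.13 against control array 2 alone.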

How the data were processed

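RNA of 5 samples was measured on GeneChip arrays after 3′ in vitro transcription labelling. MAS5 is the summary method named in the submitters' processing notes. The deposited table, taken to hold log2 values, ran from -7.05 to 7.47, and each of its 30137 rows had a median of 0 across the arrays. The log base, the probe set filter, the genome build and any scaling between arrays are not given in the sources used here. Signal over background is therefore unknown, and the number of arrays limits the precision.

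Gene symbols came from the annotation of the platform. Those with 1 symbol (24151) gave 12893 genes, each the mean of its probe sets, and 1175 with several symbols, 4753 with none and 58 control probe sets were left out. The 3 siRNAs were compared with the mean of the 2 control arrays in a two-sided test with limma 3.58.1 (lmFit, eBayes; R 4.3.3) that had 2 residual degrees of freedom and took the single control sample to be as variable as the siRNAs. Benjamini-Hochberg adjustment covered all genes, and 0.05 was the threshold. Python 3.11.15 with matplotlib 3.10.9 and pandas 2.3.3 made the tables and plots. Start-site windows came from RefSeq (GRCh38.p14).

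The plan allowed for linear signals, so its pseudocount and its filter on dim probe sets could not be applied. Members, lists and roles were chosen with earlier results of these data known, and are described by counts and medians beside all genes. Named were KDM1B, the IFITM and OAS genes, the sensors, the regulators, in other roles the members outside both control arrays (or else the 2 with the largest mean difference), and up to 2 such genes per pathway list. Other genes were named after their values were seen. On simulated data over 12893 genes for this comparison, limma called 0 of 50 genes that differed by 4 on the log2 scale and 50 of 50 at an unadjusted p under 0.05. With the variance at 0.01 of its size it called 49 of 50 that differed by 1. Alternatives were quantile normalization, median centring, 1 probe set per gene, genes with close control arrays, the spike-in set as a block or alone, separate control arrays, the title number as a block, and each array left out.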

Additional observations from a re-analysis of the deposited data

How the results depend on the processing

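The count of genes past the threshold in limma was 0 under each alternative run, for all genes, members and pathway genes alike, and the median over the members stayed above 0, between 0.15 and 0.47. Members higher under every siRNA numbered between 19 and 30 with an array left out (17.6% to 30.7% of all genes), and 14 where 29 members with control arrays within 0.5 were kept (15% of the genes so kept), since fewer genes were tested. Members above both control arrays numbered 14 to 20 with an siRNA left out, against 13.7% to 18.4% of all genes, and those below both 3 to 5, against 16.2% to 20.2%. The 2 members lower under every siRNA became 4 against the control of the own spike-in set (18.4% of all genes), 9 in spike-in set 1 alone (35.1%), and 3 to 7 with an array left out (20.2% to 30.9%). With the title number as a replicate block, in which siRNAs 1 and 2 were fitted with both control arrays, limma called 0 genes, the median was 0.31 and 6 members were lower under both siRNAs, against 30.9% of all genes. The numbers name siRNAs and do not pair samples. The cause of these shifts was not tested, except that fewer siRNAs make a shared direction easier to meet.

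Of 36 named genes 26 kept their direction under every alternative run. IFIH1 stood at -0.21 in spike-in set 1 alone, at -0.17 with the replicate block and between -0.17 and 0.69 with an array left out. IRF3 stood at -0.014 with the spike-in set as a block, at -0.41 in spike-in set 1 alone and between -0.50 and 0.69 with an array left out. IRF1 stood at -0.056 in spike-in set 1 alone and between -0.076 and 0.68 with an array left out. With 1 probe set per gene OAS2, PARP9 and JAK1 stood at 0.019, -0.093 and 0.043. With an array left out DDX60 ranged from -2.37 to 0.62, OAS2 from -1.03 to 0.26, IRF9 from -0.10 to 0.64, EIF2AK2 from -0.011 to 0.23 and ADAR from -0.21 to 0.0055. Quantile normalization gave the same 12 members above both control arrays. With 1 probe set per gene 11 members stood above both, of which 10 were among the 12: GBP2 and PARP9 left the count and PML entered it. The pseudocount and the filter on dim probe sets were not run, since the values hold no levels.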
